A study of Rattus norvegicus with 92 samples.

Results

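A set of 71 transcript rows, of 20508 in all, was present at similar levels in nasal epithelium and in lung of air-exposed rats and scarce in 6 other tissues. The rows were chosen by their measured level in the air libraries alone. For every row the deposited normalized counts were divided by the library's total and put on the common CPM scale, then averaged over the air libraries of each tissue. A row was selected when its air CPM was at least 10 in both nasal epithelium and lung, when these levels lay within 5-fold of each other, and when the lower of them was at least 5 times the air CPM of liver, adrenal gland, adipose tissue, skeletal muscle, hippocampus and hypothalamus, each taken separately. Of the 20508 rows, 8560 met the first condition, 8206 of these also met the second, and 71 met all 3.

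The animals were adult male Wistar-Kyoto rats, an inbred strain, that breathed filtered air (0 ppm) or acrolein through the nose only for 4 h. The acrolein groups went through a 30 min ramp in steps up to 1 ppm before the 3.16 ppm that filled the remaining time, and tissues were taken directly afterwards. Whole-tissue RNA was sequenced in 92 libraries from 8 tissues, of which nasal epithelium gave 5 air and 6 acrolein libraries and lung gave 8 air and 6 acrolein libraries. Nothing in the sample labels beyond a number in each name says that libraries of a group came from separate animals, so p-values measure the spread between these libraries.

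The nose and the conducting airways of the lung are lined by a related epithelium. Ciliated cells beat mucus along the surface, secretory cells supply the mucus and its antimicrobial proteins, and basal cells renew both. Other tissues listed here lack that lining, although the ventricles of the brain carry ciliated cells of their own. Nasal tissue also holds olfactory epithelium, and most of the lung is alveolar. Acrolein is a reactive aldehyde of smoke and exhaust that meets the airway surface first. The deposited tables list rows by Ensembl identifier and do not pair them with gene symbols, so cell type markers and pathway lists were not evaluated here, and the name airway is used for the tissues in which the rows were measured and not for a cell type. Each member carries a transcript identifier, and whether several belong to 1 gene was not examined. In whole tissue, fewer cells of a type and less RNA per cell cannot be told apart.

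The levels of the 71 rows covered a wide range. The lower of the nasal and lung air levels was at least 100 CPM for 17 rows, 20 to 100 CPM for 33 and under 20 CPM for 21. In nasal epithelium the air levels ran from 10.998 to 938 CPM with a median of 61.5 CPM, and in lung from 11.7 to 489 CPM with a median of 47.8 CPM. The 10 highest rows made up 51.1% of the summed air level in the nose and 49.5% in lung. No member had fewer than 16 recovered reads in any nasal library or 35 in any lung library, so none was near the limit of detection in either tissue.

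In the 6 other tissues the same rows were lower, as the selection required. The median air level of the 71 rows was 1.30 CPM in adipose tissue, 1.16 in hippocampus, 0.942 in hypothalamus, 0.547 in liver, 0.456 in adrenal gland and 0.236 in muscle. Single rows stood higher, with a highest air level of 44.4 CPM in adipose tissue, 31.3 in adrenal gland, 21.2 in hypothalamus, 19.2 in liver, 16.3 in hippocampus and 10.3 in muscle. These values are given as a description. The lower airway level exceeded the highest other tissue by a median of 15.001 times, by at least 20 times for 24 rows, and by 227 times for the most restricted row.

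**Figure D1:**
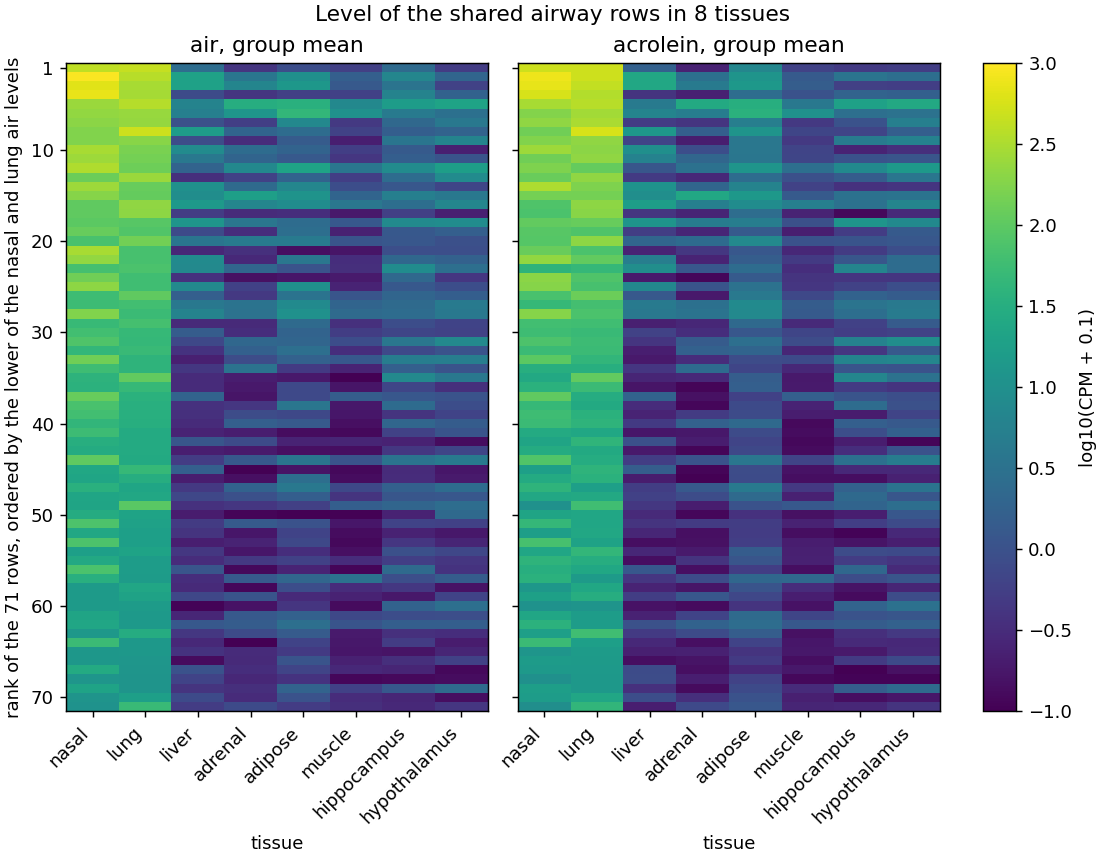
Colour gives the group mean level, as log10(CPM + 0.1), of each of the 71 rows (vertical, ordered by the lower of the nasal and lung air levels) in 8 tissues (horizontal), in air on the left and acrolein on the right. The nasal and lung columns have medians of 61.5 and 47.8 CPM in air and 53.4 and 46.1 CPM in acrolein. Within each row the other 6 columns are darker in both panels, although single cells reach up to 44.4 CPM, in adipose air.

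The acrolein libraries were not used in the selection. In them the lower of the nasal and lung levels was at least 10 CPM for 70 of the 71 rows, the levels lay within 5-fold for 70, and the lower was at least 5 times every other tissue for 64. The exceptions were 1 row at 9.47 CPM in the nose, 1 row that was 5.76 times higher in lung than in the nose, and 7 rows whose ratio to the highest other tissue was under 5, the lowest being 3.67. Selecting rows on the acrolein libraries instead gave 82 rows, of which 63 were among the 71.

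The limits of the selection cut through a continuous range. The members closest to the level limit had lower air levels of 10.998 and 11.7 CPM, and the nearest rows left out had 9.79 and 9.29 CPM. Members closest to the limit on evenness differed 4.65-fold and 4.58-fold between nose and lung, and the nearest rows left out 5.08-fold and 5.27-fold. The limit on other tissues was the tightest, with members at 5.01 and 5.04 times the highest other tissue and rows just outside at 4.87 and 4.85 times.

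The highest member by its lower air level was at 408 ± 254 CPM (SD, n = 5) in nasal air libraries and 442 ± 106 CPM (SD, n = 8) in lung air libraries. Its nasal air values had a lowest of 110, a median of 461 and a highest of 708 CPM, and its lung air values a lowest of 263, a median of 432 and a highest of 606 CPM. The nasal range held the whole lung range. In the acrolein libraries it stood at 502 ± 122 CPM (SD, n = 6) in the nose and 495 ± 315 CPM (SD, n = 6) in lung. The next tissue was liver at 2.56 CPM, 159 times below.

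The following 3 rows were higher in the nose. The second-ranked row had a mean of 938 ± 292 CPM (SD, n = 5) in nasal air and 378 ± 230 CPM (SD, n = 8) in lung air libraries. The third-ranked row had 671 ± 194 CPM in the nose and 304 ± 129 CPM in lung, and the fourth 739 ± 584 CPM and 293 ± 118 CPM, with the same n. The spread of the fourth row came from nasal air values between 212 and 1735 CPM. For all 3 rows the highest lung air library lay above the lowest nasal air library, so the groups overlapped although the means differed 2.48-fold, 2.21-fold and 2.52-fold.

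Other abundant rows leaned toward lung. The eighth-ranked row was at 489 CPM in lung and 177 CPM in the nose in air, and at 564 and 136 CPM after acrolein. The 16th-ranked row was at 220 CPM in lung and 106 in the nose, and the 17th at 211 and 104.8. Rows of rank 5 to 7 and 9 lay closer together, with nasal-to-lung ratios between 0.712 and 0.932. Among the 20 highest rows the closest to equal was the 18th, at 99.1 CPM in the nose and 92.8 CPM in lung.

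In air, 42 of the 71 rows were higher in the nose and 29 in lung, with a median nasal-to-lung ratio of 1.33. For 43 rows the group means lay within 2-fold. Every nasal air library exceeded every lung air library for 13 rows, every lung library exceeded every nasal one for 6, and the remaining 52 overlapped. The share of all rows separated in this way was not computed, so whether these counts are many or few is not known. Nose and lung were normalized in separate tables, so these ratios compare shares of each library and were not tested.

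In the acrolein libraries 35 rows were higher in the nose and 36 in lung, and the median ratio was 0.995. The ratio was lower than in air for 55 of the 71 rows. It was also lower for 67.4% of the 8206 rows that passed the level and evenness conditions. Every nasal acrolein library exceeded every lung acrolein library for 10 rows, and the reverse held for 8, again without a share over all rows to set beside them.

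**Figure D2:**
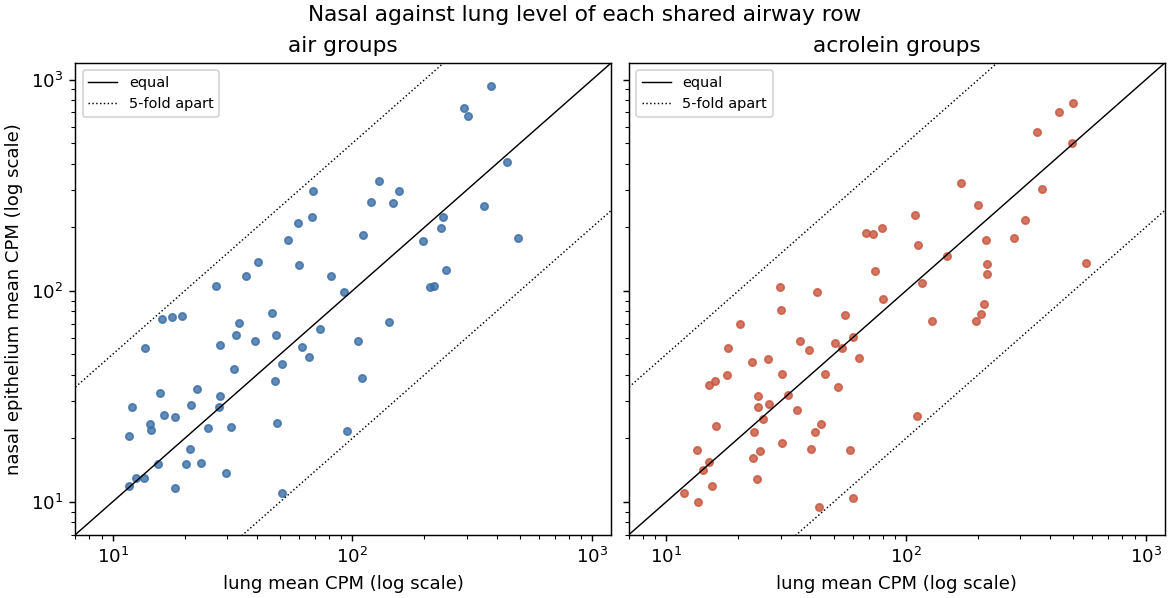
Each point is 1 of the 71 rows, with the mean lung CPM on the horizontal and the mean nasal CPM on the vertical log axis, in air on the left and acrolein on the right; the solid line marks equal levels and dotted lines a 5-fold difference. In air 42 points lie above the line of equality and in acrolein 35.

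The spread within groups was described by the coefficient of variation. The coefficient of variation over nasal air libraries had a median of 32.6% for the 71 rows, ranging from 9.77% to 93.3%, against 26.3% for all rows of at least 10 CPM. In lung air libraries the medians were 24.5% and 20.3%, in nasal acrolein libraries 30.7% and 25.5%, and in lung acrolein libraries 39.1% and 33.7%. A coefficient above 50% was seen for 17 rows in nasal air and for 8 in lung air libraries.

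The summed level of the 71 rows placed nose and lung well above the other tissues, which the selection required in the air libraries. It was 8725 ± 935 CPM (SD, n = 5) in nasal air libraries and 7762 ± 1662 CPM (SD, n = 6) in nasal acrolein libraries. The 5 nasal air sums were 7822, 8266, 8582, 8669 and 10289 CPM, and the nasal acrolein sums had a lowest of 5177, a median of 7820 and a highest of 9852 CPM. Of the 6 nasal acrolein libraries, 3 lay below every air library and the others overlapped with them.

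Lung sums had a lowest of 5861, a median of 6423 and a highest of 7168 CPM in the 8 air libraries, and a lowest of 5880, a median of 7413 and a highest of 8868 CPM in the 6 acrolein libraries. Of the lung acrolein libraries, 4 lay above every air library. The acrolein mean was 0.890 times the air mean in the nose and 1.15 times in lung. No test was made of these sums, because the members had been chosen with results of these data known.

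Nasal acrolein replicate 11 had the lowest sum and held the lowest value of all 11 nasal libraries for 33 of the 71 rows. Over all rows of at least 10 CPM in the nose it was lowest for 13.9% and highest for 22.2%. Without it the nasal ratio of acrolein to air was 0.949. Its sum over 269 rows high in nasal epithelium alone was 166889 CPM, the median of the nasal libraries, whose range was 81241 to 307994 CPM.

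**Figure D3:**
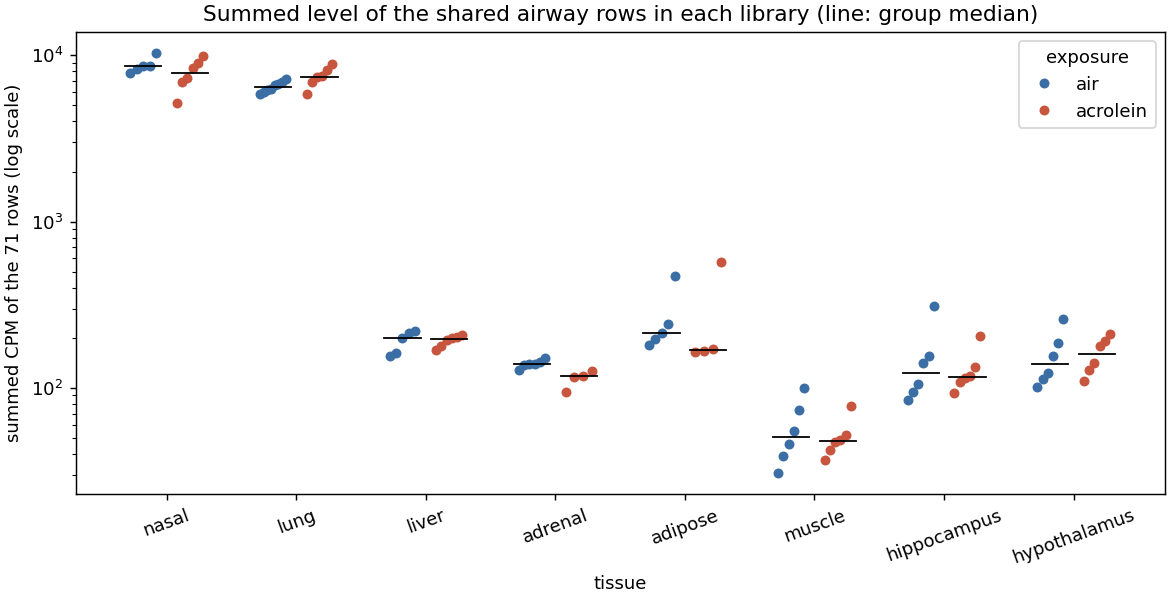
Each point is the summed CPM of the 71 rows in 1 library (vertical, log axis) for 8 tissues (horizontal), air in blue and acrolein in red, with a black line at the group median. Nasal and lung libraries lie between 5177 and 10289 CPM, adipose air replicate 7 and acrolein replicate 10 stand at 470 and 575 CPM, and hippocampus air replicate 2 at 311 CPM, each above the rest of its tissue.

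Exposure to acrolein was compared with air within each tissue by limma on log2(normalized count + 1), with all rows of the table in the fit. Calls needed an adjusted p no higher than 0.1 and a change of more than 1.2-fold in either direction. The comparison reuses the air libraries that chose the members, so it is only partly independent of the selection.

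In nasal epithelium 1 of the 71 rows was called, and it was lower. All 71 passed the filter on low values. The background was 0.651% of all rows tested called in either direction and 0.0591% called lower, so 1 row in 71 is a single row and not a pattern of the set. An unadjusted p under 0.05 was reached by 12 of the 71 rows, 2 of them higher. Over all rows it was reached by 12.2%, and 1391 of those 2481 rows were higher. The median log2 fold change of the 71 rows was -0.06, with 30 above 0, and the median over all rows tested was -0.0019. Leaving out nasal acrolein replicate 11 moved the members' median to 0.0078, with 38 above 0, and leaving out the other nasal libraries in turn gave -0.16 to -0.01.

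The called row was ENSRNOT00000108557, 11th in rank. Its normalized counts in the nasal air libraries were 3426, 3194, 5483, 5276 and 3758 for replicates 2, 4, 5, 6 and 8. In the 6 nasal acrolein libraries they had a lowest of 1910, a median of 2209 and a highest of 2619. All acrolein libraries lay below all air libraries. The log2 fold change was -0.89 ± 0.17 (SE), with an adjusted p of 0.0473 by limma.

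In lung ENSRNOT00000108557 was not called. It had air values with a lowest of 1461, a median of 1949 and a highest of 2695, and acrolein values with a lowest of 1204, a median of 2705 and a highest of 5104. The acrolein group spanned the whole air group, and the log2 fold change was 0.42 ± 0.27 (SE), with an adjusted p of 0.701 by limma. It was 0.22 without acrolein replicate 12, 0.28 without acrolein replicate 10 and 0.64 without acrolein replicate 15. The nasal minus lung difference in log2 fold change was -1.31 ± 0.35 (SE), with an adjusted p of 0.264 by limma, which did not pass. Its highest level in the other tissues in air was 3.92 CPM in liver, against 262 CPM in the nose and 148 CPM in lung.

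The nasal call was lost without air replicate 5 or 6 or acrolein replicate 9, 10, 12 or 15, each left out alone, although the log2 fold change stayed between -0.98 and -0.79 over all nasal libraries left out in turn. The largest adjusted p among these fits was 0.140. It was also lost with each library rescaled to the same total, at an adjusted p of 0.110, and with limma without a trend, at 0.105.

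The air and acrolein groups did not overlap in the nose for 4 of the 71 rows, all lower after acrolein, against 1.38% of all rows tested. One was ENSRNOT00000108557. The 21st-ranked row had the lowest nasal log2 fold change of the set. It went from a lowest of 3425, a median of 4065 and a highest of 8976 normalized counts in air to a lowest of 633, a median of 1904 and a highest of 3384 after acrolein, with a log2 fold change of -1.30 ± 0.38 (SE) and an adjusted p of 0.257 by limma. The other two, of rank 17 and 51, had log2 fold changes of -0.54 and -0.67 and were not called.

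Count models were run on the recovered reads. In the nose edgeR called 1 row, again ENSRNOT00000108557, against a background of 0.552% in either direction. DESeq2 called 4 rows, all lower, against 2.43% of its rows in either direction, with 142 of 18630 rows called lower. They were ENSRNOT00000108557 and the rows of rank 12, 21 and 56. In that order the DESeq2 log2 fold changes were -0.92, -0.93, -1.23 and -1.17. The adjusted p by DESeq2 was 0.000286, 0.0939, 0.0796 and 0.0866.

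In lung no row of the 71 was called by limma, and the background was 0.00499%, a single row of the table. An unadjusted p under 0.05 was reached by 8 rows, 5 of them higher. Over all rows it was reached by 7.67%, and 879 of those 1538 rows were higher. edgeR called none, against 0.0299% of all rows. DESeq2 called 3, all higher, against 0.582% in either direction, with 80 of 16328 rows called higher. No member had air and acrolein groups free of overlap in lung, where 0.0898% of all rows did. The median log2 fold change was 0.09 over the 71 rows, with 43 above 0, and -0.0077 over all rows tested. The members' median was 0.01 without acrolein replicate 13, 0.04 without air replicate 6, 0.05 without acrolein replicate 15 or 14, and 0.13 without acrolein replicate 9.

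ENSRNOT00000073292 had the smallest p in lung. Its lung air values had a lowest of 210, a median of 272 and a highest of 434 normalized counts, and its acrolein values a lowest of 378, a median of 579 and a highest of 833. The groups overlapped only between acrolein replicates 10 and 14 and air replicate 6. The log2 fold change was 0.98 ± 0.21 (SE), with an adjusted p of 0.325 by limma and 0.0139 by DESeq2. In the nose the 5 air values were between 196 and 400 and the 6 acrolein values between 200 and 570, with a log2 fold change of 0.42 ± 0.27 (SE).

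ENSRNOT00000005791 was next among the rows that were higher in lung. Its lung air values had a lowest of 235, a median of 390 and a highest of 677 normalized counts, the highest being air replicate 1, and its acrolein values a lowest of 442, a median of 677 and a highest of 1183. The log2 fold change was 0.89 ± 0.23 (SE), with an adjusted p of 0.482 by limma and 0.0630 by DESeq2. In the nose it was 0.21 ± 0.48 (SE). Leaving out acrolein replicate 15 gave -0.0016 there, and leaving out acrolein replicate 11 gave 0.63. The third row called by DESeq2 in lung, of rank 22, went from a median of 898 to 1315 normalized counts, with an adjusted p of 0.482 by limma and 0.0461 by DESeq2.

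ENSRNOT00000039336 was lower in both tissues without passing in either. In lung its 8 air values had a lowest of 852, a median of 943 and a highest of 1211 normalized counts, and its 6 acrolein values a lowest of 281, a median of 639 and a highest of 903. Only acrolein replicate 10 reached into the air range. The log2 fold change was -0.76 ± 0.21 (SE) in lung, with an adjusted p of 0.498 by limma, and -0.64 ± 0.35 (SE) in the nose, with an adjusted p of 0.472. The nasal value was -0.40 without acrolein replicate 11, -0.41 without air replicate 5 and -0.91 without air replicate 8.

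**Figure D4:**
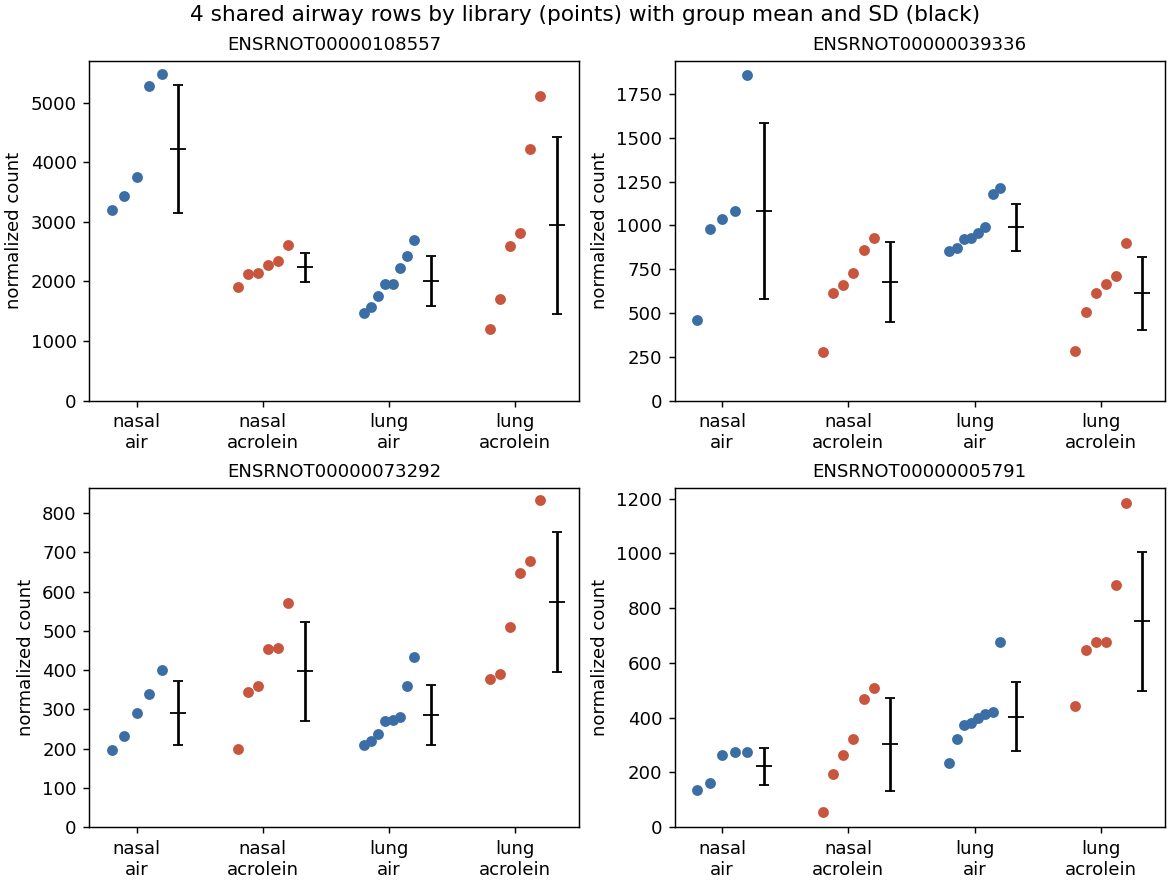
Normalized counts of 4 rows by library (points, air in blue and acrolein in red) in nasal epithelium and lung, with the group mean and SD in black; all vertical axes start at 0. The 6 nasal acrolein points of ENSRNOT00000108557 lie between 1910 and 2619, below its 5 nasal air points, and its lung groups overlap.

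The difference between the nasal and the lung response was tested row by row. None of the 71 rows passed an adjusted p of 0.1 in limma, against a background of 0.186%, and 7 had an unadjusted p under 0.05, against 5.35% of all rows. No count model was run for this difference. The median nasal minus lung difference in log2 fold change was -0.15 for the 71 rows, with 24 above 0, and -0.0036 for all rows. With libraries left out in turn it ranged from -0.23 to -0.06, the latter without nasal acrolein replicate 11.

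Rows restricted to either tissue are set beside the shared rows. They had an air CPM of at least 10 in that tissue and at least 5 times that of each of the 7 other tissues. The air libraries that chose each set are also the baseline of its fold changes. In the nose the median log2 fold change was -0.10 for the 269 rows high in nasal epithelium alone and 0.04 for the 164 tested of 165 rows high in lung alone, against -0.06 for the shared rows. In lung the medians were 0.11 for 255 tested rows of the nasal set, -0.14 for the 165 lung rows and 0.09 for the shared rows. These sets were not tested against each other.

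**Figure D5:**
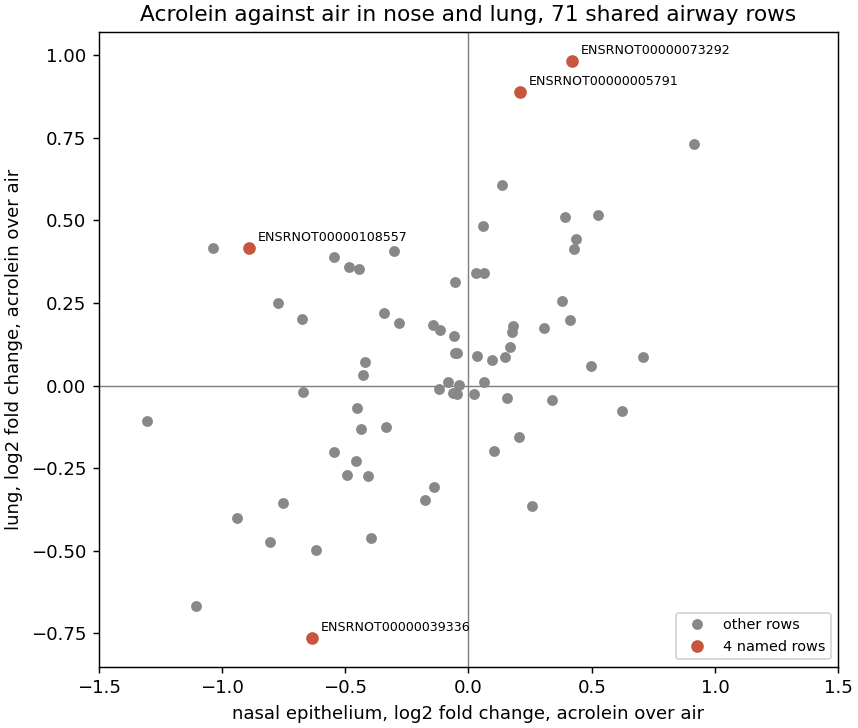
Each point is 1 of the 71 rows, with its log2 fold change, acrolein over air, in nasal epithelium on the horizontal and in lung on the vertical axis; the 4 named rows are in red. 30 points lie above 0 on the nasal axis and 43 on the lung axis, and ENSRNOT00000108557 lies at -0.89 in the nose and 0.42 in lung.

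In the 6 other tissues, where the rows are scarce, none was called. The background was 0.368% in liver and 0 in adrenal gland, adipose tissue, muscle, hippocampus and hypothalamus. An unadjusted p under 0.05 was reached by 2 rows in liver, against 19.2% of all rows tested there, and by 3 of 70 tested in adrenal gland, against 7.54%. It was reached by 4 rows in adipose tissue, against 2.71%, 1 in muscle, against 2.99%, 3 in hippocampus, against 4.31%, and 1 in hypothalamus, against 2.69%. No count model was run in these tissues. In adrenal gland the 4 acrolein sums of the rows, 93.9 to 126 CPM, lay below the 6 air sums, 128 to 152 CPM. The median log2 fold change there was -0.17, with 25 of 70 rows above 0, and -0.011 over all rows tested. Air and acrolein groups did not overlap for 2 rows, both lower, against 1.31% of all rows. The sums were not tested. The median was -0.09 in liver, 0.22 in muscle and 0.06 in hypothalamus.

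The residual signal outside the airways was uneven between libraries. Liver air replicate 5 held the highest liver value for 27 of the 71 rows, and for 11.3% of all rows. Muscle acrolein replicate 14 held the highest muscle value for 26 of the 71 rows, and for 5.22% of all rows. Muscle air replicate 5 had the highest muscle sum, 99.2 CPM, and the highest value for 19 of the 71 rows, against 29.2% of all rows. In it the rows high in nasal epithelium alone summed to 5103 CPM, with at most 1403 CPM elsewhere in muscle. Those high in lung alone summed to 2751 CPM, with at most 1664 CPM elsewhere. The part of nasal or lung RNA in it was not tested. Of the 10 adipose libraries, air replicate 7 and acrolein replicate 10 together held the highest value for 64 of the 71 rows. Among all rows of at least 10 CPM in adipose tissue, air replicate 7 was highest for 16.2% and acrolein replicate 10 for 6.28%. Their sums were 470 and 575 CPM, and the remaining adipose sums were between 165 and 242 CPM. Both libraries lay above every other adipose library for 31 of the 71 rows, and for 4.63% of all rows. The mean of these libraries was a median of 7.02 times the mean of the others over the 71 rows.

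Rows restricted to either airway tissue were summed in the same adipose libraries. In adipose air replicate 7 the 269 nasal rows summed to 1990 CPM, with 833 to 1294 CPM elsewhere in adipose tissue, while the 165 lung rows summed to 3736 CPM within the range of the others. In adipose acrolein replicate 10 the lung rows summed to 8622 CPM, with 3475 to 4162 CPM elsewhere, while the nasal rows summed to 833 CPM, the lowest adipose value. The part of nasal or lung RNA in these values was not tested.

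Hippocampus air replicate 2 held the highest hippocampal value for 43 of the 71 rows, and for 14.3% of all rows. Its sum was 311 CPM, with 83.9 to 205 CPM in the other hippocampal libraries. Its nasal rows summed to 4388 CPM, with at most 1697 CPM elsewhere in hippocampus, and its lung rows to 1290 CPM, the lowest hippocampal value. The part of nasal RNA in this library was not tested. For 19 rows this library and both adipose libraries stood highest in their tissues, and the share of all rows that did so was not computed.

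These adipose and hippocampal libraries set the medians of the exposure comparison in their tissues. In adipose tissue the median log2 fold change of the 71 rows was 0.25, but -0.26 without acrolein replicate 10, 0.67 without air replicate 7 and -0.06 without both. In hippocampus it was -0.28, and -0.02 without air replicate 2. No direction is given for the rows in either tissue.

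They also bore on which tissue came next after nose and lung. In air that was adipose tissue for 28 rows, liver for 15, hypothalamus for 11, hippocampus for 9, adrenal gland for 7 and muscle for 1. Without adipose air replicate 7 and hippocampus air replicate 2 it was adipose tissue for 12, liver for 21, hypothalamus for 18, adrenal gland for 11, hippocampus for 8 and muscle for 1. The tissue was the same in the acrolein libraries for 52 of the 71 rows, among them 22 of the 28 rows of adipose tissue. It was also the same for 13 of the 15 of liver and all 11 of hypothalamus. The adipose acrolein mean included acrolein replicate 10, the highest adipose library for 37 of the 71 rows, and was not redone without it. The selection itself moved little, to 75 rows without adipose air replicate 7, 70 of them shared, and to 72 rows without hippocampus air replicate 2.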

How the data were processed

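mRNA libraries were sequenced from 8 tissues. Per the study's methods, which describe liver, the authors mapped reads to rn7 with Ensembl release 105 in Partek Flow (R 4.1.3) and normalized them with DESeq2 1.34.0. The deposited signal values are read counts divided by a size factor per library, in 1 table per tissue. Whole read counts were recovered from the deposited steps (at least 99.961% of values within 0.01 of a whole number), and totalled 2513375 to 30194066 per library. Nasal libraries held 12232645 to 21100321 reads and lung libraries 8014891 to 30194066. The 2 adipose libraries of air replicate 8 were averaged.

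Rows detected in 2 or more libraries of a tissue entered limma 3.58.1 (R 4.3.3; pseudocount 1, trend, Benjamini-Hochberg over all rows tested). Fold changes are on the log2(value + 1) scale, which understates the change of low rows. edgeR 4.0.16 and DESeq2 1.42.0 on recovered counts were alternatives, with other pseudocounts, filters and scalings and each library left out. The code was tested on simulated data.

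Members and lists were chosen with earlier results of these data known. Rows named were those called, or else of smallest p, limited to 2 identifiers higher and 2 lower; others are given by rank of the lower air CPM. Rows of rank 12, 17, 21, 22, 51 and 56 were singled out after their values were seen.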

Additional observations from a re-analysis of the deposited data

Results flagged for a closer look

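Over 32 groups of 4 to 8 libraries (the summed CPM of the 71 rows in 16 groups, and 4 named rows in the nasal and lung groups), 6 held a library far from the others by Dixon's criterion, where chance flags about 1 in 20. Of the sums, adipose air replicate 7 stood at 470 CPM with the next at 242, adipose acrolein replicate 10 at 575 CPM with the next at 172, hippocampus air replicate 2 at 311 CPM with the next at 156, hippocampus acrolein replicate 14 at 205 CPM with the next at 133, and muscle acrolein replicate 14 at 78.2 CPM with the next at 52.1. Among the named rows, ENSRNOT00000005791 had 677 normalized counts in lung air replicate 1, with the next air library at 422.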

How the results depend on the processing

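The 1 nasal call became 0 when each library was rescaled to the same total and when limma was run without a trend, and 4 with DESeq2. With libraries left out in turn it was 0 to 1. The lung count of 0 became 3 with DESeq2 and stayed at 0 to 0 with libraries left out. The nasal minus lung count of 0 became 1 without lung acrolein replicate 15 and was 0 to 1 over all libraries left out. In the 6 other tissues it was 0 in all 66 fits with a library left out. The number of members was 113 at 3 times and 45 at 10 times the other tissues, and 69 to 76 with libraries left out. The cause was not tested. ENSRNOT00000005791 in the nose had a log2 fold change of 0.21 that became -0.0016 without acrolein replicate 15, and ranged up to 0.63 with other libraries left out. The nasal ratio of summed levels ranged from 0.842 to 0.949 and the lung ratio from 1.11 to 1.201 with libraries left out.

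Nasal and lung libraries of the same number shared little: 4 of 10 pairs had a correlation of deviations over 0.1 (range -0.29 to 0.37), and 3 libraries correlated best with their own number. With the replicate block, 0 members passed in the nasal minus lung comparison. That fit kept only the 10 pairs, without nasal acrolein replicate 11, lung air replicates 1, 3 and 7 and lung acrolein replicate 13. The members' median difference in it was 0.0069, above 0, against -0.15 over all libraries without the block. The sets of libraries differ, so the part of the block in this shift was not tested. The alternatives that left out adipose, hippocampus, muscle and liver libraries were chosen after seeing the data. With 5 and 6 nasal libraries, calls rest on few samples; counting error was small beside the spread between libraries at a median of 890 reads per row and library in the nose and 628 in lung.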
